A study of Homo sapiens with 6 samples.

Results

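The genes described are 54 type I interferon-stimulated genes, taken by symbol from a list of well-known antiviral and interferon-induced genes in a table of 58735 genes. All 54 were found in the table. Of these, 53 passed the filter on low counts and were tested, and IFITM2, with 1 read in all, was not.

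RNA was sequenced from T84 cells, a long-established line from a human colorectal cancer, in 3 libraries with a short hairpin RNA against ACSL4 (shACSL4; genotype given as an ACSL4 knockdown) and 3 with a control hairpin (shControl; genotype given as wild type), while the series text speaks of a knockout. ACSL4 encodes a long-chain acyl-CoA synthetase with a preference for polyunsaturated fatty acids. All 6 libraries come from the same line in DMEM/F12 medium with serum, and no interferon or virus treatment is named. Neither the labels nor the files say how many hairpins were used, whether a line was a single clone, or whether replicates were separate cultures. The p-values therefore measure the spread between these libraries, which may be technical.

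Type I interferons bind the receptor IFNAR1 and IFNAR2 on the cell surface and, through the kinases JAK1 and TYK2, activate a transcription factor complex that contains STAT2 and IRF9. That complex binds interferon-stimulated response elements (ISRE) in promoters and switches on a broad set of genes whose products degrade or edit viral RNA, block entry and release of virus particles, or attach the ubiquitin-like protein ISG15 to other proteins. Many of these genes keep a basal level in epithelial cells without any added interferon.

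Total counts were 14740383 to 17189496 in shACSL4 libraries and 15119283 to 17620630 in shControl libraries. ACSL4 itself was at 10.3, 9.12 and 11.1 CPM (read counts divided by the scaled library size) in shACSL4 libraries, against 75.5, 72.2 and 72.0 CPM in shControl libraries. The epithelial origin of the cells was plain in all libraries. The 12 colonic epithelial markers (EPCAM, CDX2, VIL1 and others) summed to 9191 to 10583.5 CPM in shACSL4 and 8211 to 9545 CPM in shControl libraries. Single genes of this list went both ways. KRT20 was at 300, 322 and 295 CPM in shACSL4 against 169, 167 and 164 CPM in shControl libraries. EPCAM was at 1079, 1104 and 1109 CPM in shACSL4 against 1372, 1595 and 1437 CPM in shControl libraries. The 13 leukocyte markers summed to 6.86 to 8.92 CPM in shACSL4 libraries, against 19.6 to 30.1 CPM in shControl libraries. LYZ, which some epithelial cells also make, held most of these reads, CD3E had none, and the pan-leukocyte gene PTPRC had 2, 3 and 2 reads in shACSL4 and 7, 5 and 11 reads in shControl libraries. CSF1R of the same list went the other way, with 7, 14 and 5 reads in shACSL4 and 1, 2 and 2 reads in shControl libraries. The 10 fibroblast and endothelial markers summed to 3.14 to 3.48 CPM in shACSL4 libraries, against 3.51 to 5.11 CPM in shControl libraries, and KDR had no read. Not all of them followed the sum, since CDH5 had 8, 9 and 4 reads in shACSL4 and 1, 3 and 0 reads in shControl libraries. The part of these marker reads in the results was not tested. In bulk RNA a change in the number of cells that express a gene and a change in its RNA per cell cannot be told apart.

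Of the 53 interferon-stimulated genes tested, 33 were higher and 9 were lower in shACSL4 than in shControl cells, by edgeR's quasi-likelihood test at a Benjamini-Hochberg adjusted p under 0.05 over all 15694 genes tested. These are 62.3% and 17% of the members, where 24% of all genes tested were called higher and 23.1% lower. In either direction 42 members (79.2%) were called, against 47.2% of all genes. The median log2 fold change of shACSL4 over shControl was 0.53 for the members and 0.01 for all genes. The 2 groups did not overlap in CPM for 43 members (81.1%), against 55.1% of all genes. A rise beyond 2-fold was called for 17 members (32.1%), and a fall beyond 2-fold for 1 (1.89%), UBE2L6. Of all genes tested, 11.9% were called with a change beyond 2-fold in either direction. These counts and shares include members such as IFI44L, RSAD2 and IFIT1, which passed the filter on low counts through their shACSL4 libraries. For such members a rise was the only direction that could be tested.

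**Figure D1:**
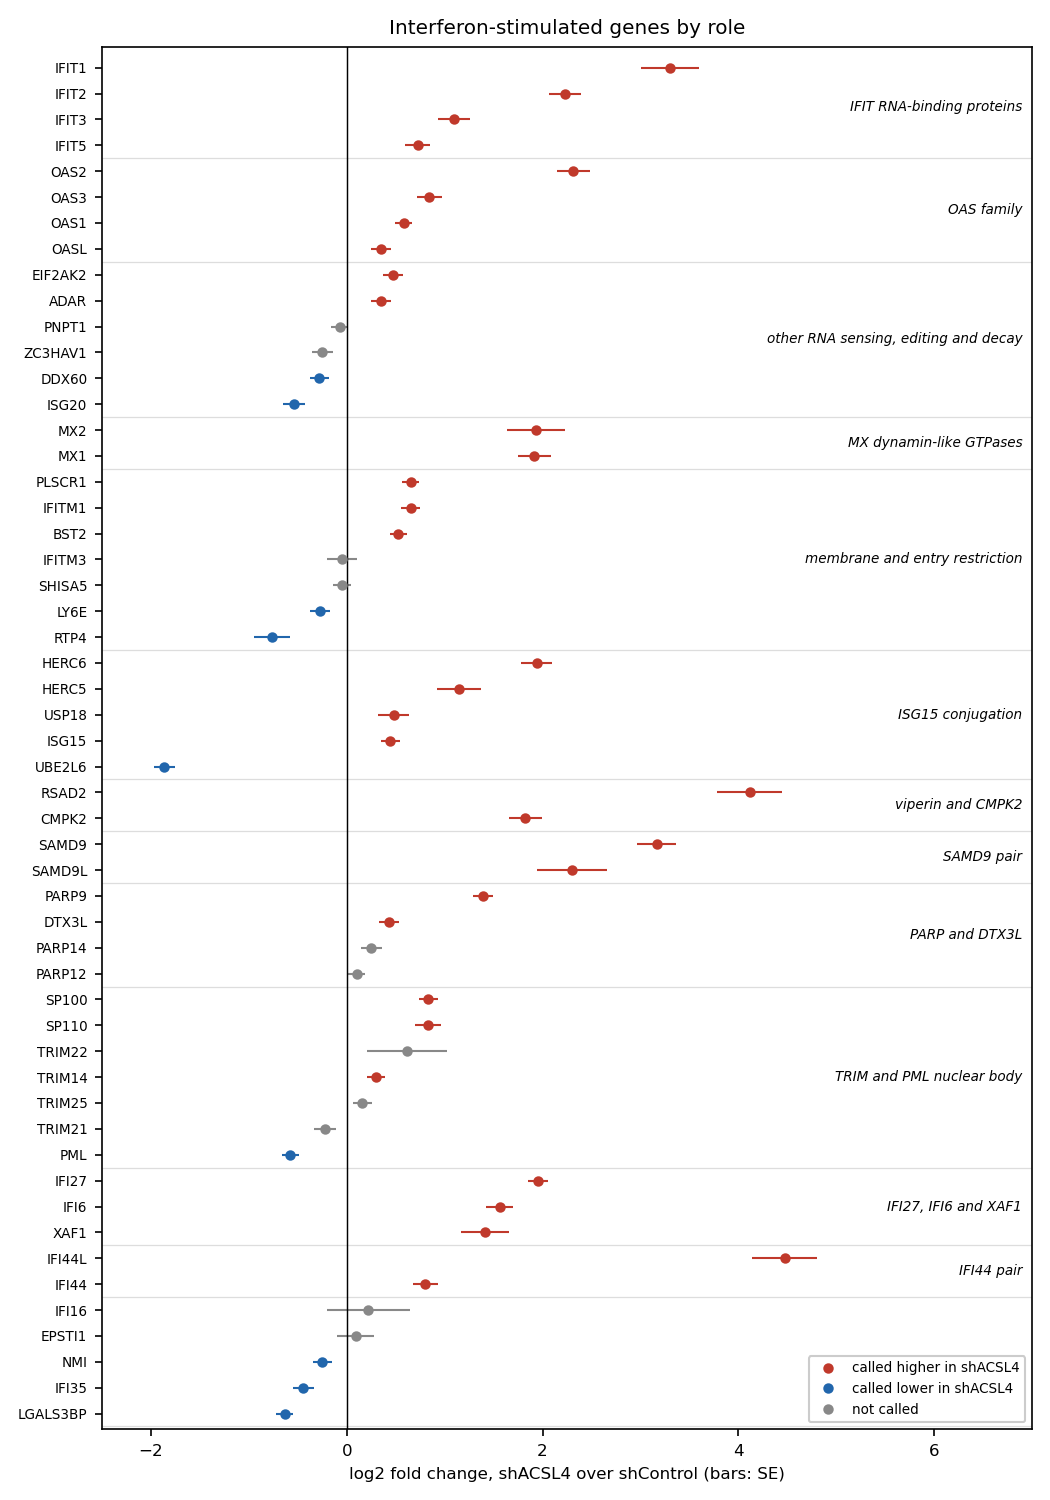
Log2 fold change of shACSL4 over shControl for the 53 members tested (points; bars are SE, 3 libraries per group), grouped by role and coloured by call. The IFIT, OAS, MX, SAMD9 and IFI44 genes all lie right of 0, UBE2L6 lies farthest left at -1.86, and the membrane group is spread on both sides.

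The promoters of members with large changes are shown because an ISRE in this region is the known control element of the gene class. The windows run from 250 bases before to 50 bases after each annotated start (RefSeq, GRCh38.p14), and 45 of the 54 members had one or more. Capitals mark the ISRE core letters GAAANNGAA, read on either strand as GAAANNGAA or TTCNNTTTC. The first 4 sequences belong to the largest rises, and the last 4 to the largest falls, among members with a window and a mean of at least 50 counts, each printed 5′ to 3′ along the gene. RSAD2 and SAMD9L, which rose more than IFI27 and have windows, fell short of that mean, and hold 2 and 0 copies of the letters. For genes with several starts, the first listed was taken.
IFI44L, chr1:78620198-78620497, plus strand: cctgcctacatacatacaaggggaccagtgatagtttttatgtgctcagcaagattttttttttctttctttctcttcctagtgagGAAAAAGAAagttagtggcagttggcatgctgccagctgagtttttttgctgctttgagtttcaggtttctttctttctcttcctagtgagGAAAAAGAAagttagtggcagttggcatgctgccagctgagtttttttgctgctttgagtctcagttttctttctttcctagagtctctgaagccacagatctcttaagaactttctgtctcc
IFIT1, chr10:89392373-89392672, plus strand: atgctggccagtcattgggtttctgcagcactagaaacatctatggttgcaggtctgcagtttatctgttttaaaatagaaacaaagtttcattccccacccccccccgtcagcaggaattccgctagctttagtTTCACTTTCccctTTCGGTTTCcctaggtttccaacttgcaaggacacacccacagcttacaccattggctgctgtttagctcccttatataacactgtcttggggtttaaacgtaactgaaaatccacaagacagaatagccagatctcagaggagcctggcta
SAMD9, chr7:93117930-93118229, minus strand: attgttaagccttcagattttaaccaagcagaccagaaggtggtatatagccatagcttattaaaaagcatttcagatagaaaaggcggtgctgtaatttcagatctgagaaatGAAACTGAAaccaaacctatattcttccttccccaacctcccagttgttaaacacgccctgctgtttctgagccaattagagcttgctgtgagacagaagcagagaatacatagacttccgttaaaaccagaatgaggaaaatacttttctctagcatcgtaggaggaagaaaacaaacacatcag
IFI27, chr14:94110486-94110785, plus strand: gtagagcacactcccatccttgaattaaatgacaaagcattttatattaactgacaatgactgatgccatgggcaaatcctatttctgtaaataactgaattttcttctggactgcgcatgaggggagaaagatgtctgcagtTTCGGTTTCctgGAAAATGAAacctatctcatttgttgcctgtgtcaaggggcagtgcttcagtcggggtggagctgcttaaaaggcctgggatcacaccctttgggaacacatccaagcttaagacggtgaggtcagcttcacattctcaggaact
UBE2L6, chr11:57567886-57568185, minus strand: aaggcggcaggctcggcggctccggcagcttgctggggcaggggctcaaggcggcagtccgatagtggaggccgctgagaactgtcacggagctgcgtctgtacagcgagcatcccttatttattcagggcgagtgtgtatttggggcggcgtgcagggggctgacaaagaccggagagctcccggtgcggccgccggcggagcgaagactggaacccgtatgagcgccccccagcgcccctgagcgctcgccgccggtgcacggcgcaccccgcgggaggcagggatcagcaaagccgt
RTP4, chr3:187368135-187368434, plus strand: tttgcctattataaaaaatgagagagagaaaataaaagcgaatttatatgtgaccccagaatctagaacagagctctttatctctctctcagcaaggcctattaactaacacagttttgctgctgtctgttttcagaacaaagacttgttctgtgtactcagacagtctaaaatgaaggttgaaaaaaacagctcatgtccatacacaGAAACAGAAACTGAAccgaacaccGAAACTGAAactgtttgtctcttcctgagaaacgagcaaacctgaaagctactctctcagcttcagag
LGALS3BP, chr17:78979874-78980173, minus strand: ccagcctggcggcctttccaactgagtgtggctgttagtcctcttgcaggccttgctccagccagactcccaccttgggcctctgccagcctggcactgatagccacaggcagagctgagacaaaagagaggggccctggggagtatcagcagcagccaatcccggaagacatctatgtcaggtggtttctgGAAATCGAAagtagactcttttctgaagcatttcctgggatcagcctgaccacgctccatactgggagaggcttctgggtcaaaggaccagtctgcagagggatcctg
ISG20, chr15:88638766-88639065, plus strand: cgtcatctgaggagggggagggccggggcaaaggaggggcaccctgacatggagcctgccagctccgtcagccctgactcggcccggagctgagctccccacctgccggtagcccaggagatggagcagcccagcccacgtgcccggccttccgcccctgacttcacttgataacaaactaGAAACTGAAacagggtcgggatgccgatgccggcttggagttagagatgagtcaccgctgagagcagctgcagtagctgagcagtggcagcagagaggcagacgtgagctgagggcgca

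The ISRE core letters stood in 33 of the 45 members with a window (73.3%), against 9.86% of 27305 genes with windows of this length. By window it was 39 of 63 member windows (61.9%), against 8.11% of 35116 windows. Among members called higher the letters were found for 21 of 28, and among members called lower for 5 of 7. Members not called held them in 7 of 10 cases. RTP4, a fall, held 3 copies, overlapping ones counted, while the windows of HERC6 and SAMD9L, both rises, held none. The windows of UBE2L6 held none either. The letters TTCNNNGAA of the gamma-activated site (GAS), which read the same on both strands, stood in 14 of the 45 members (31.1%) and 9.38% of all genes. They overlapped an ISRE core in 5 members, in IFI27 for one. A match describes letters in the window only, and says nothing about binding.

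**Figure D2:**
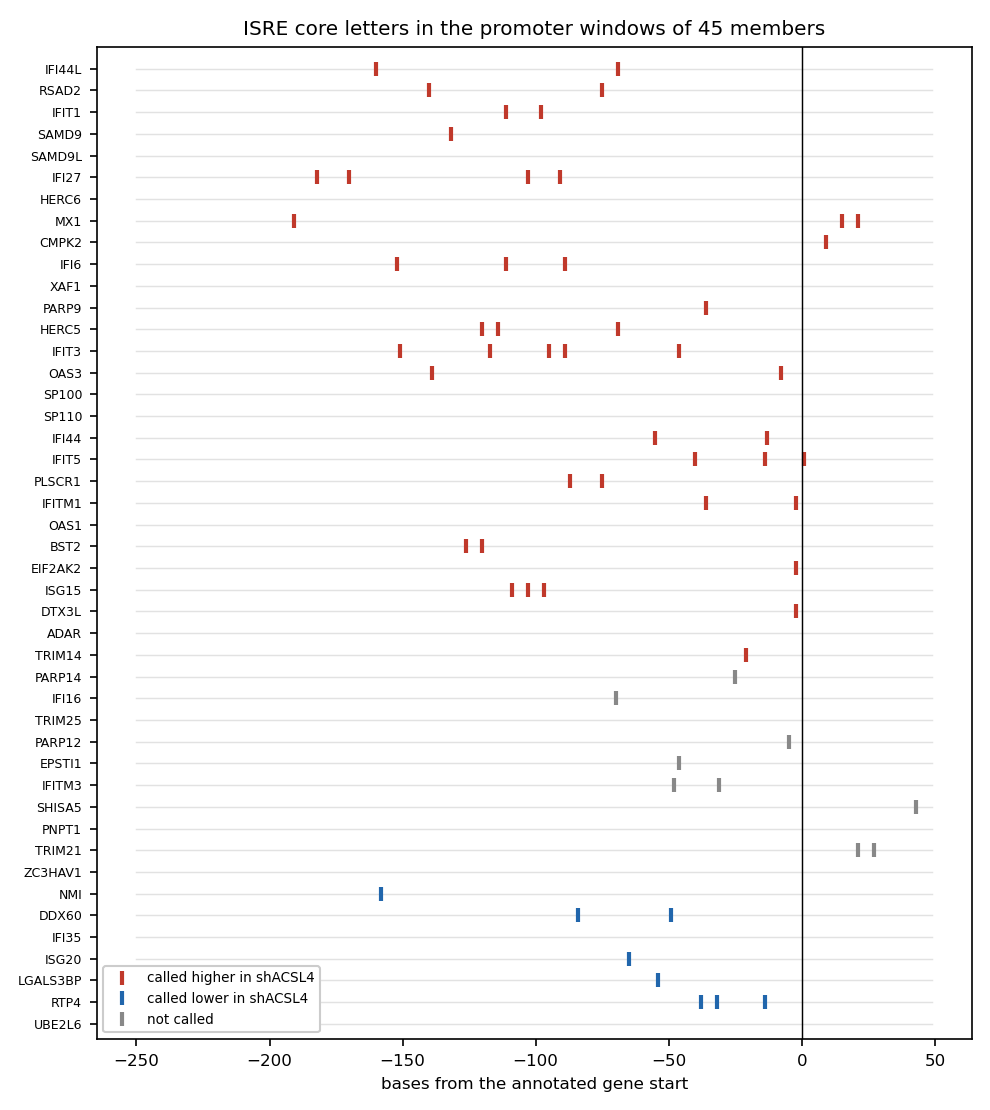
Position of each ISRE core match (ticks) from 250 bases before to 50 bases after the annotated start, in bases, for the 45 members with a promoter window, coloured by call; where a gene has several starts, matches of all its windows are drawn. Ticks appear for 21 members called higher, 5 called lower and 7 not called.

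Both IFI44 genes rose. IFI44L (ENSG00000137959, GRCh38 chromosome 1, 78619922 to 78646145, plus strand) and its neighbour IFI44, 3651 bases downstream, encode related interferon-induced proteins. IFI44L had 133, 142 and 98 reads in shACSL4 libraries, against 9, 3 and 4 reads in shControl libraries, which is 8.53, 8.09 and 6.2 CPM against 0.535, 0.188 and 0.269 CPM. IFI44L passed the filter on low counts through its shACSL4 libraries, so its direction was fixed by the filter. Its p-value is therefore no support for a rise. The log2 fold change was 4.47 (SE 0.33, adjusted p = 1.25e-08). Its size rests on few control reads and ranged from 4.19 to 5.01 when 1 library was left out. IFI44 was more abundant and changed less, at 15.8, 17.6 and 16.6 CPM in shACSL4 against 9.04, 9.92 and 9.75 CPM in shControl libraries (0.80, SE 0.13). Both start near ISRE core letters, IFI44L with 2 copies.

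The 4 IFIT genes, which encode antiviral proteins, some of which bind viral RNA ends and hinder its translation, lie within 1 cluster on chromosome 10 and all rose. IFIT1 (ENSG00000185745, chromosome 10, 89392546 to 89406486, plus strand) had 262, 243 and 216 reads in shACSL4 libraries and 22, 42 and 7 reads in shControl libraries. In CPM this is 16.8, 13.9 and 13.7 in shACSL4 and 1.31, 2.64 and 0.471 in shControl libraries, so the shControl libraries, in proportion to their level, differed among themselves more than the shACSL4 ones. IFIT1 also passed the filter on low counts through its shACSL4 libraries, which fixed its direction. The log2 fold change was 3.31 (SE 0.30, adjusted p = 1.54e-07), and it was 4.00 without shControl replicate 2 and 2.89 without shControl replicate 3. IFIT2 was at 16, 17.8 and 15.7 CPM in shACSL4 and 2.97, 4.21 and 3.36 CPM in shControl libraries (2.23, SE 0.16). The change was smaller for IFIT3 (1.10, SE 0.16), and least for IFIT5 (0.72, SE 0.12), the most abundant of the 4 at 7.42 ± 0.856 FPKM in shACSL4 and 4.53 ± 0.566 FPKM in shControl (SD, n = 3 each). FPKM scales reads to gene length and library size and is used here to compare genes with each other. The running median log2 fold change of 51 neighbouring genes was 0.41 to 0.44 here. Relative to it IFIT3 changed by 0.68, and IFIT5 by 0.29, where its call was lost (adjusted p = 0.0706).

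The OAS genes encode enzymes that make oligoadenylates on double-stranded RNA and so activate RNase L, and OASL is their relative without that activity. All 4 rose. OAS2 (ENSG00000111335, chromosome 12, 112978395 to 113011723, plus strand) rose most, to 62.4, 65.8 and 37.1 CPM in shACSL4 libraries, against 11.1, 10.9 and 11.2 CPM in shControl libraries (2.31, SE 0.17, adjusted p = 1.41e-08). The shControl libraries lay close together and shACSL4 replicate 3 well below the other two. Its neighbours on chromosome 12 changed less: OAS3, the most abundant of the family, was at 308, 302 and 216 CPM in shACSL4 and 174, 130 and 156 CPM in shControl libraries (0.84, SE 0.13), and OAS1 at 87.4, 81.7 and 83.2 CPM against 58.0, 57.2 and 53.5 CPM (0.58, SE 0.08). OASL, elsewhere on the chromosome, changed by 0.35 (SE 0.10), a call lost without shACSL4 replicate 1 or shControl replicate 3 (adjusted p = 0.0536 and 0.0695). The running median of neighbouring genes was -0.06 to -0.04 at these 4 genes.

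Of the 6 other RNA-directed members, 2 were higher, 2 lower and 2 not called. Of all genes tested 24% were higher and 23.1% lower, so nothing is read from these counts about the group. EIF2AK2, the kinase PKR that halts translation on double-stranded RNA, rose (0.47, SE 0.10). ADAR, which edits adenosine to inosine in double-stranded RNA, was at 540, 541 and 444 CPM in shACSL4 against 424, 364 and 408 CPM in shControl libraries. Its log2 fold change was 0.35 (SE 0.10, adjusted p = 0.00862), and the call was lost without shACSL4 replicate 1 or 2 (adjusted p = 0.0503 and 0.0519). The exonuclease gene ISG20 (ENSG00000172183, chromosome 15, 88636153 to 88656483, plus strand) fell, with 15.7, 15.4 and 17.2 CPM in shACSL4 and 24.5, 23.0 and 22.8 CPM in shControl libraries (-0.54, SE 0.11, adjusted p = 0.000738). Its groups stood clearly apart. The helicase gene DDX60 was lower at 60.4, 58.8 and 48.3 CPM in shACSL4 against 70.4, 63.6 and 69.5 CPM in shControl libraries (-0.28, SE 0.10, adjusted p = 0.025). That call was lost without shACSL4 replicate 3 (adjusted p = 0.118), without shControl replicate 1 or 3 (0.086 and 0.0531), when libraries were scaled by size only (0.168), and against the running median of its neighbours (-0.07, 0.626). The zinc finger antiviral protein gene ZC3HAV1 (-0.25, adjusted p = 0.0636) and PNPT1, the mitochondrial polynucleotide phosphorylase (-0.07), did not pass the test; ZC3HAV1 passed it without shControl replicate 2 (adjusted p = 0.0044) and with no filter (0.0354).

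The MX genes on chromosome 21 encode dynamin-like GTPases that trap viral components, and both rose by a similar factor from different levels. MX1 (ENSG00000157601, chromosome 21, 41420304 to 41459214, plus strand) was at 62.5, 60.3 and 36.6 CPM in shACSL4 and 12.3, 16 and 13.9 CPM in shControl libraries (1.92, SE 0.17). MX2 had 91, 99 and 67 reads in shACSL4 and 16, 33 and 16 reads in shControl libraries, or 5.84, 5.64 and 4.24 against 0.952, 2.07 and 1.08 CPM (1.93, SE 0.29). In both genes shACSL4 replicate 3 was the lowest of its group, and the groups did not overlap.

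RSAD2 encodes viperin, which makes a chain-terminating nucleotide, and CMPK2, a nucleotide kinase of mitochondria, starts beside it on the opposite strand of chromosome 2, so that the 2 genes overlap at their starts. RSAD2 (ENSG00000134321, chromosome 2, 6865806 to 6898239, plus strand) had 88, 97 and 89 reads in shACSL4 libraries, against 3, 5 and 7 reads in shControl libraries, which gave 5.64, 5.53 and 5.63 CPM against 0.178, 0.314 and 0.471 CPM. RSAD2 passed the filter on low counts through its shACSL4 libraries, so its direction was fixed by the filter and its p-value is no support for a rise. The shACSL4 libraries were nearly alike, and the log2 fold change was 4.11 (SE 0.33, adjusted p = 4.19e-08), ranging from 3.81 to 4.46 when 1 library was left out. CMPK2 was at 12.6, 11.3 and 10.4 CPM in shACSL4 and 3.45, 2.95 and 3.23 CPM in shControl libraries (1.83, SE 0.17). The overlap covers 0.29% of the exonic bases of RSAD2 and 0.325% of those of CMPK2. The neighbouring genes had a running median of 0.54 there.

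SAMD9 and SAMD9L, side by side on chromosome 7, encode large cytosolic proteins that restrict poxviruses, and both rose. SAMD9 (ENSG00000205413, chromosome 7, 93099513 to 93118023, minus strand) was at 33.3, 37.2 and 22.1 CPM in shACSL4 libraries, against 2.97, 3.01 and 4.37 CPM in shControl libraries (3.17, SE 0.20, adjusted p = 2.47e-09). SAMD9L had 93, 105 and 42 reads in shACSL4 and 23, 14 and 10 reads in shControl libraries (2.30, SE 0.35, adjusted p = 5.26e-05). In shACSL4 replicate 3 it stood at 44.5% of the mean of the other two shACSL4 libraries, yet above all shControl libraries.

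**Figure D3:**
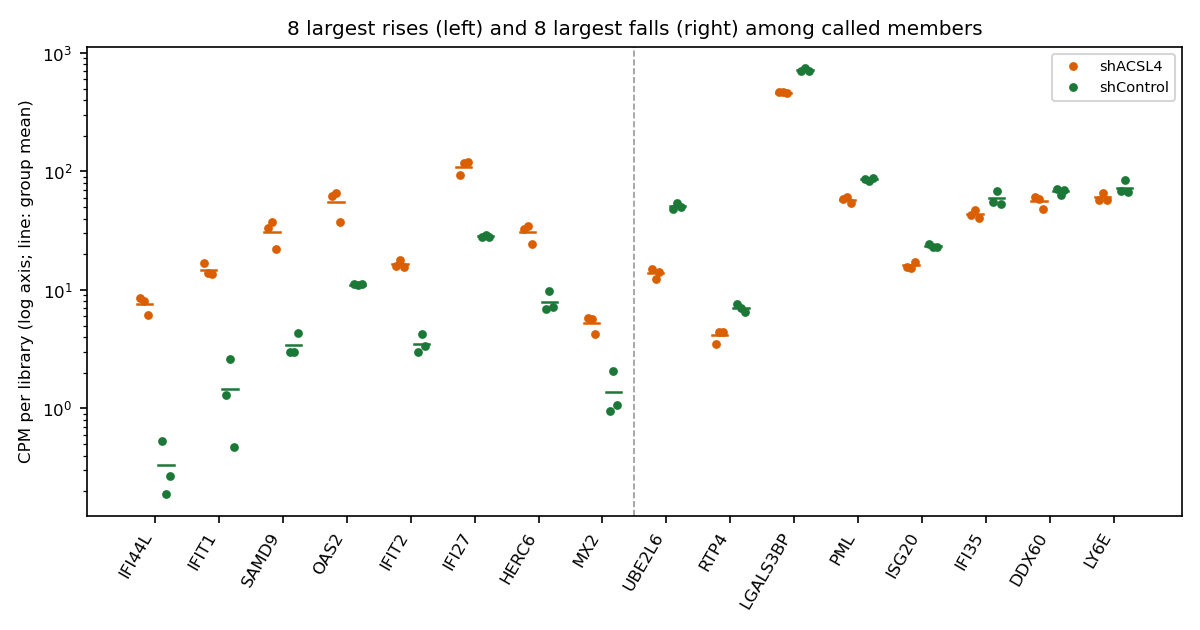
CPM per library on a log axis for the 8 largest rises (left of the dashed line) and the 8 largest falls (right) among called members with a mean of at least 50 counts; lines are group means, shACSL4 left of shControl. IFI44L is at 6.2 to 8.53 CPM in shACSL4 and at 0.188 to 0.535 CPM in shControl, and UBE2L6 at 12.4 to 15.1 CPM in shACSL4 and at 48.6 to 53.6 CPM in shControl.

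The ISG15 system was split. ISG15 is attached to proteins by an enzyme chain in which UBE2L6 is the conjugating enzyme and HERC5 the main human ligase, and USP18 removes it again and also damps the interferon receptor. ISG15 itself was at 28.0, 27.5 and 29.3 CPM in shACSL4 libraries, against 20.3, 20.7 and 21.1 CPM in shControl libraries (0.45, SE 0.10, adjusted p = 0.00163). The groups were tight and apart. HERC5 had 139, 117 and 103 reads in shACSL4 and 45, 70 and 43 reads in shControl libraries (1.15, SE 0.22). Its neighbour on chromosome 4, HERC6 (ENSG00000138642, chromosome 4, 88378739 to 88443111, plus strand), whose mouse counterpart is the main ISG15 ligase in that species, rose more, with 32.7, 34.8 and 24.2 CPM in shACSL4 against 6.9, 9.79 and 7.20 CPM in shControl libraries (1.94, SE 0.16, adjusted p = 5.94e-08). USP18 changed by 0.48 (SE 0.16, adjusted p = 0.0198). The USP18 call was lost without shACSL4 replicate 1 (0.0781), without shControl replicate 2 (0.0755), in DESeq2 (0.0614), and against the running median of its neighbours (0.148). Of its 75-base transcript words 18.3% also occur in USP41, so its reads may be split.

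UBE2L6 (ENSG00000156587, chromosome 11, 57551656 to 57568284, minus strand) went the other way from ISG15, HERC5, HERC6 and USP18. It had 235, 217 and 226 reads in shACSL4 libraries, against 817, 854 and 738 reads in shControl libraries, or 15.1, 12.4 and 14.3 CPM against 48.6, 53.6 and 49.6 CPM. Both groups were tight, and the log2 fold change was -1.86 (SE 0.11, adjusted p = 6.96e-10). The authors' deposited table gives -1.88. No exonic base of UBE2L6 overlaps another gene, none of its 75-base transcript words occurs in another gene, and the neighbouring genes had a running median of 0.0053.

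The membrane and entry group held 3 rises, 2 falls and 2 genes not called among 7 tested, where 24% of all genes tested were higher and 23.1% lower. BST2, the tetherin that holds budding virus at the cell surface, was at 73.9, 76.9 and 73.1 CPM in shACSL4 libraries, against 50.5, 54.9 and 49.9 CPM in shControl libraries (0.53, SE 0.08, adjusted p = 7.8e-05). The phospholipid scramblase PLSCR1 was at 103, 109 and 101 CPM in shACSL4 against 62.7, 70.1 and 66.2 CPM in shControl libraries (0.65, SE 0.08). RTP4 (ENSG00000136514, chromosome 3, 187368332 to 187372076, plus strand), a chaperone-like protein of receptor transport, fell, with 55, 78 and 70 reads in shACSL4 and 127, 113 and 96 reads in shControl libraries (-0.77, SE 0.18, adjusted p = 0.00262). Groups did not overlap in any of these 3 genes. The cell surface protein gene LY6E was at 57.7, 65.8 and 57.7 CPM in shACSL4 and 67.8, 83.9 and 67.3 CPM in shControl libraries (-0.27, SE 0.10, adjusted p = 0.034). Its call was lost without shACSL4 replicate 1 or 3 (0.125 and 0.0987), without shControl replicate 2 (0.14), when libraries were scaled by size only (0.204), and with limma-trend on FPKM (0.0592), while relative to neighbouring genes, whose running median was 0.49, it changed by -0.76. SHISA5, a p53-induced membrane protein gene, did not pass the test (-0.05, adjusted p = 0.699).

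The IFITM genes, whose products block fusion of viruses with the cell membrane, lie together on chromosome 11 and differed. IFITM1 rose to 48.6, 56.1 and 59.0 CPM in shACSL4 libraries, against 34.5, 32.3 and 37.5 CPM in shControl libraries (0.65, SE 0.10). IFITM3 was at 9.04, 9.18 and 7.21 CPM in shACSL4 and 8.27, 8.47 and 9.62 CPM in shControl libraries (-0.05, SE 0.16, adjusted p = 0.819). IFITM2 had 0, 0 and 1 read in shACSL4 and no read in shControl libraries. These genes share sequence, since 29.8% of the 75-base words of IFITM1 transcripts, 24.2% of those of IFITM2 and 8.05% of those of IFITM3 occur in another gene, and the annotated IFITM2 and IFITM1 genes overlap on the same strand. How reads were divided between them is therefore uncertain, and the values of each are those of the authors' counting.

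Of the PARP genes, which modify proteins with ADP-ribose, PARP9 (ENSG00000138496, chromosome 3, 122527924 to 122564577, minus strand) rose most. It was at 70.7, 69.4 and 61.2 CPM in shACSL4 libraries, against 24.3, 23.7 and 28.6 CPM in shControl libraries (1.39, SE 0.10, adjusted p = 1.22e-08). DTX3L, its ubiquitin ligase partner, starts from the same stretch of chromosome 3 in the other direction and changed less, with 145, 144 and 111 CPM in shACSL4 against 103, 92.9 and 99.7 CPM in shControl libraries (0.43, SE 0.10). Both pairs of groups were apart, with different sizes of change. PARP14, close by, was at 0.25 (SE 0.11, adjusted p = 0.0699), and passed the test without shACSL4 replicate 3 (0.0149), without shControl replicate 3 (0.0273), when libraries were scaled by size only (0.0147), and against its neighbours (0.0118). PARP12 was not called (0.10, adjusted p = 0.37).

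Of the 7 genes in the nuclear body and TRIM group, 3 were higher, 1 lower and 3 not called, where 24% of all genes tested were higher and 23.1% lower. PML (ENSG00000140464, chromosome 15, 73994673 to 74047812, plus strand), the protein that builds the nuclear bodies, was at 58.1, 61.2 and 53.6 CPM in shACSL4 libraries, against 86.5, 83.4 and 87.6 CPM in shControl libraries (-0.57, SE 0.09, adjusted p = 3.66e-05). SP100, its partner in those bodies, moved in the other direction with 40.2, 42.0 and 39.2 CPM in shACSL4 against 21.6, 25.1 and 21.4 CPM in shControl libraries (0.83, SE 0.10, adjusted p = 4.37e-06). SP110, a relative of SP100 on chromosome 2, rose by 0.83 (SE 0.13), and 20.9% of its exonic bases overlap genes of the opposite strand, SP140 among them. TRIM14 rose (0.30, SE 0.09, adjusted p = 0.013), a call lost without shACSL4 replicate 1 or 2 or shControl replicate 3 (0.088, 0.0519 and 0.0598). TRIM25, the ligase that activates RIG-I, was at 173, 182 and 145 CPM in shACSL4 and 158, 133 and 156 CPM in shControl libraries (0.16, SE 0.10, adjusted p = 0.204). It passed the test without shACSL4 replicate 3 (0.0433) and when libraries were scaled by size only (0.0316), and against its neighbours, whose running median was -0.41, it changed by 0.57 (0.00022). TRIM21, a cytosolic antibody receptor, was not called (-0.22, adjusted p = 0.115), nor was TRIM22, with 24, 28 and 15 reads in shACSL4 and 11, 11 and 20 reads in shControl libraries.

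IFI27, IFI6 and XAF1, whose products act on mitochondria and cell death, all rose. IFI27 (ENSG00000165949, chromosome 14, 94104836 to 94116698, plus strand) was at 92.5, 117 and 119 CPM in shACSL4 libraries, against 28.0, 28.9 and 28.0 CPM in shControl libraries (1.95, SE 0.10, adjusted p = 3.14e-10), and is 1 of the 3 rises in which shACSL4 replicate 3 was the highest of its group. IFI6 was at 17.3, 18.8 and 16.6 CPM in shACSL4 and 5.83, 5.96 and 6.05 CPM in shControl libraries (1.56, SE 0.14). XAF1 had 160, 139 and 97 reads in shACSL4 and 45, 37 and 62 reads in shControl libraries (1.41, SE 0.24). Without use of strand in counting being stated, XAF1 reads cannot be told apart from those of PRAL, an opposite-strand annotation that covers 38.3% of its exonic bases.

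The remaining 5 induced genes, which share no role, held 3 falls and 2 genes not called, where 23.1% of all genes tested were lower. LGALS3BP (ENSG00000108679, chromosome 17, 78971238 to 78980109, minus strand), a secreted glycoprotein that binds galectins, was the most abundant member at 126 ± 1.61 FPKM in shACSL4 and 198 ± 7.58 FPKM in shControl (SD, n = 3 each). It had 464, 463 and 454 CPM in shACSL4 libraries, against 702, 740 and 698 CPM in shControl libraries (-0.63, SE 0.09, adjusted p = 1.53e-05). Both groups were tight, the running median of neighbouring genes was -0.34, and relative to it the change was -0.29 (adjusted p = 0.0107). IFI35 and NMI encode partner proteins. IFI35 was at 42.7, 47.3 and 40.5 CPM in shACSL4 and 55.2, 68.7 and 53.5 CPM in shControl libraries (-0.44, SE 0.11, adjusted p = 0.00236), a call lost relative to neighbouring genes (-0.21, 0.111). NMI stood at the edge of the test (-0.25, SE 0.10, adjusted p = 0.0471), and 12 of 15 alternative settings lost it, with adjusted p of 0.0511 to 0.3. IFI16, a nuclear DNA sensor, had 28, 24 and 9 reads in shACSL4 and 19, 21 and 11 reads in shControl libraries, and no difference was detectable at this depth (0.22, SE 0.43). EPSTI1 was not called (0.09, adjusted p = 0.714).

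Levels of the members spanned a wide range. Members with few control reads, such as IFI44L, RSAD2 and IFIT1, passed the filter on low counts through their shACSL4 libraries, so their direction was fixed by the filter and no count is given for the lowest levels. Among members with a mean of 2 to 10 FPKM over all 6 libraries, 13 of 20 were called higher (65%, median log2 fold change 0.76) and 4 lower, against 28.2% of all genes higher and 21.8% lower. At 10 FPKM or more, 12 of 22 members were higher (54.5%, median 0.33) and 5 lower (22.7%), where 18.5% of all genes were higher and 35.6% lower. The median of all genes was 0.04 in the lower of these ranges and -0.11 in the upper. The highest levels after LGALS3BP were those of BST2 at 65.7 ± 1.92 FPKM in shACSL4 and 46.0 ± 2.69 FPKM in shControl, ADAR at 51.6 ± 5.71 FPKM in shACSL4 and 40.9 ± 3.08 FPKM in shControl, and IFITM1 at 49.8 ± 4.96 FPKM in shACSL4 and 32.0 ± 2.14 FPKM in shControl (SD, n = 3 each). In shACSL4 cells ADAR and IFITM1 did not differ beyond their spread. On the log2(FPKM + 1) scale, which compresses low levels, limma-trend gave smaller changes for the low members, such as 0.74 for IFI44L and 1.01 for RSAD2.

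**Figure D4:**
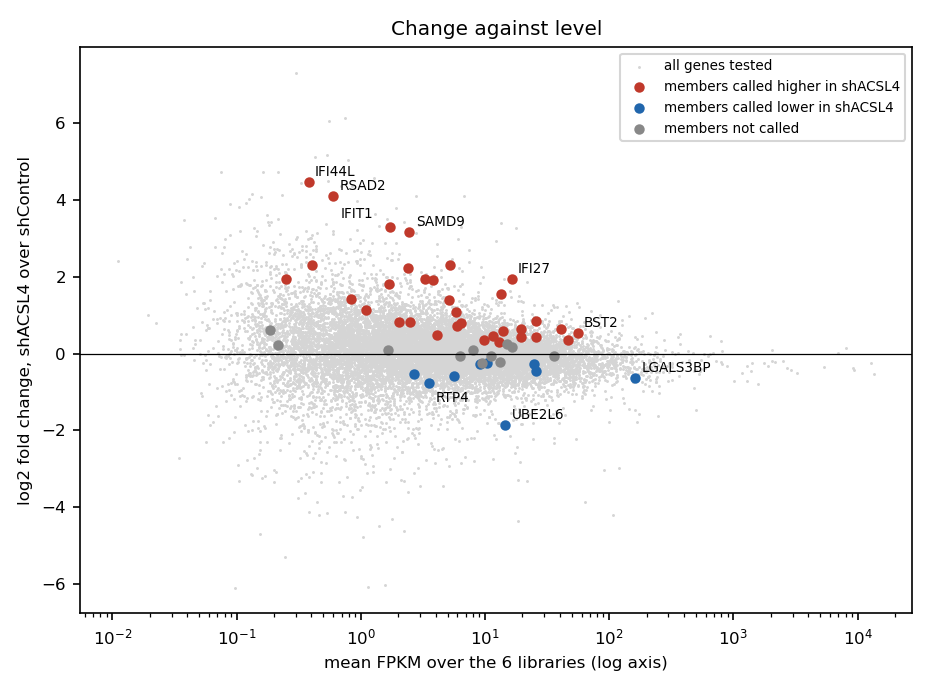
Log2 fold change of shACSL4 over shControl against mean FPKM over the 6 libraries (log axis) for all 15694 genes tested (grey) and the 53 members tested (coloured by call). The 17 members called higher beyond 2-fold all lie below 20 FPKM, and LGALS3BP, the most abundant member, lies below 0.

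Within the shACSL4 group the rises were uneven. Of the 33 members called higher, 27 (81.8%) had their lowest shACSL4 level in replicate 3, against 45.2% of the 3769 genes called higher in the whole table. Over these members shACSL4 replicate 3 stood at a median of 84.2% of the mean of replicates 1 and 2 (range 44.5% to 113.9%), where the median over all genes called higher was 97.0%. The lowest were SAMD9L at 44.5%, OAS2 at 57.9%, MX1 at 59.6% and SAMD9 at 62.6%. In shControl cells no replicate took that place, with 12, 12 and 9 of the 33 members lowest in replicates 1, 2 and 3. The library of shACSL4 replicate 3 was also the smallest, at 14740383 counts, with 7.30% of its counts from mitochondrial genes, against 8.43% and 8.27% in shACSL4 replicates 1 and 2. The part of these differences in the lower levels was not tested. Without that library 35 members were called higher and 6 lower.

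**Figure D5:**
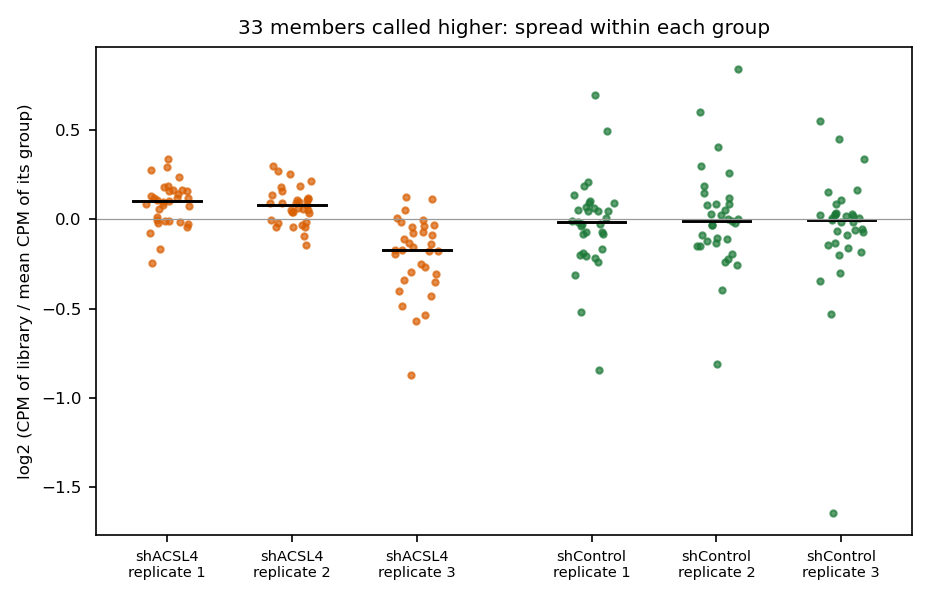
For the 33 members called higher, log2 of the CPM in each library over the mean CPM of its own group (points are genes, black lines are medians), shACSL4 libraries left of shControl libraries. Points of shACSL4 replicate 3 lie mostly below 0, with SAMD9L lowest of that library, while the medians of the 3 shControl libraries lie near 0.

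With members at most 200 kb apart taken as neighbours, 25 of the 54 fell into 10 clusters. In the 8 of these clusters where every gene was called, all changes were rises, and the pairs ranged from near equal (MX1 and MX2, SP100 and SP110) to far apart (IFI44L and IFI44). The other two were the IFITM cluster and the cluster of PARP9, DTX3L and PARP14. None of the 9 falls lay in a cluster. Since 33 of the 42 called members rose in any case, and shared direction was not tested, nothing particular to neighbours is read from this.

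Upstream of these genes, no interferon transcript reached the filter. Of 21 interferon ligand genes, 17, IFNB1 and all 13 listed IFNA genes among them, had no read in any library, which allows up to 0.171 to 0.202 CPM per library (3 counts; counting error only). IFNE had 6, 2 and 5 reads in shACSL4 and 3, 1 and 1 reads in shControl libraries, and IFNK had 3, 2 and 0 reads in shACSL4 and 3, 0 and 0 reads in shControl libraries. IFNL1 had 0, 0 and 3 reads in shACSL4 and 0, 1 and 0 reads in shControl libraries, and IFNL3 had 2 reads in 1 shACSL4 library. These numbers are too small to compare.

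Of 6 interferon receptor genes 3 rose and 1 fell, where 24% of all genes tested were called higher and 23.1% lower. IFNAR1 was at 89.7, 84 and 86.9 CPM in shACSL4 libraries, against 60.2, 67.4 and 61.8 CPM in shControl libraries (0.46, SE 0.08, adjusted p = 0.000281). IFNLR1, of the type III receptor, changed by 0.83 (SE 0.14) and IFNGR1, of the type II receptor, by 0.68 (SE 0.09), while its partner IFNGR2 fell (-0.49, SE 0.09). IFNAR2 was not called (-0.34, adjusted p = 0.165). The 4 calls held in all 15 alternatives.

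Among the kinases, STATs and interferon regulatory factors (IRFs), IRF9, IRF7 and the kinase TYK2 rose, and IRF2, IRF5 and IRF8 fell. IRF9, the DNA-binding partner of STAT2, had 137, 160 and 144 reads in shACSL4 and 42, 18 and 35 reads in shControl libraries, or 8.79, 9.12 and 9.11 CPM against 2.50, 1.13 and 2.35 CPM (2.17, SE 0.24, adjusted p = 1.36e-06). IRF7, the amplifier of interferon production, was at 34.8, 36.0 and 33.3 CPM in shACSL4 against 16.7, 18.9 and 18.8 CPM in shControl libraries (0.94, SE 0.10). IRF2, mostly a repressor at these promoters, was at 19.2, 16.1 and 17.5 CPM in shACSL4 and 38.6, 37.2 and 37.1 CPM in shControl libraries (-1.10, SE 0.10, adjusted p = 2.86e-07). The groups did not overlap in these 3 genes. At IRF2 the running median of neighbouring genes was -0.36, and relative to it the change was -0.73 (adjusted p = 2.61e-05). STAT2 was not called (0.15, SE 0.09, adjusted p = 0.203), except when libraries were scaled by size only. The IRF8 call was lost without shACSL4 replicate 2 or 3, without shControl replicate 1, and when libraries were scaled by size only (adjusted p = 0.0656, 0.0769, 0.0624 and 0.104). Of 6 feedback inhibitor genes (SOCS1, SOCS3, PIAS1, PIAS3, PTPN2 and PTPN6) 0 were called by edgeR, 0 at an unadjusted p under 0.05, and 0 by DESeq2, limma-voom and limma-trend. By edgeR 47.2% of all genes tested were called, and a list of 6 genes is short.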

How the data were processed

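Ribosomal RNA was depleted from total RNA extracted with Trizol and libraries were built by an NEB method, per the labels' protocols. CASAVA, HISAT2 and GRCh38 (hg38) are named in the submitters' processing notes. No source used here names the counting tool or says whether it used strand. The authors deposited raw read counts per gene, FPKM values and their own log2 fold changes, per the file headers. Control columns carry the prefix NC and were taken as shControl, matched by number. Coordinates and identifiers equal those of GENCODE release 29 for all 58735 genes.

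Genes passing filterByExpr were scaled by TMM and compared on their counts over all genes with edgeR's quasi-likelihood test without covariates (edgeR 4.0.16, limma 3.58.1, R 4.3.3); CPM uses the scaled library sizes. DESeq2 1.42.0, other scalings, filters and limma fits, a replicate block, leaving out each library and the running median of 51 neighbouring genes were alternatives. The steps were tested on simulated data. The members, role groups, pathway lists and naming rule were chosen with earlier results of these data known. Values per library are given for called members whose groups are apart and whose mean count reaches 50, namely those with the 8 strongest rises and the 8 strongest falls, and for the most abundant member of each role; further members were added after their values were seen. Some genes of the pathway lists are not reported here. Each gene's transcript words of 75 bases were searched in all GENCODE transcripts. No molecular identifiers are named in the labels, so reads may be PCR copies and count limits cover counting error only.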

Additional observations from a re-analysis of the deposited data

How the results depend on the processing

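Calls and fold changes were recomputed under 15 alternatives. Of the 53 members tested, 33 kept direction and call in all 15, and RSAD2, SAMD9L and TRIM22 did so in the 14 that tested them, since the minimum mean of 50 counts removes them. The promoter matches and the ligand counts were not recomputed. Members called higher numbered 29 to 35 and members called lower 6 to 9. With library size alone as scaling, which moved the median of all genes to 0.13 and the share of calls that were higher from 50.9% to 65.6%, 35 members were higher and 6 lower, with a member median of 0.65. The member median was 0.42 with limma-trend on log2(FPKM + 1), and 0.46 to 0.58 when 1 library was left out. Limma-trend gave 0.74 for IFI44L, 1.01 for RSAD2, 1.67 for IFIT1, 1.84 for SAMD9, 1.42 for IFIT2, 0.34 for MX2, 0.55 for SAMD9L, 1.05 for CMPK2, 0.58 for HERC5, 0.59 for XAF1, 0.54 for SP110 and 1.14 for IRF9.

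Direction turned for 5 members, none of them called in any setting. With library size alone PNPT1 was at 0.048, IFITM3 at 0.066 and SHISA5 at 0.070, and relative to neighbouring genes PNPT1 was at 0.012. With 1 library left out, IFITM3 ranged from -0.109 to 0.056, SHISA5 from -0.130 to 0.021, IFI16 from -0.123 to 0.562 and EPSTI1 from -0.082 to 0.336. The cause was not tested. A value at 3 counts corresponds to 0.171 to 0.202 CPM, and the members with the largest SE were IFI16 (0.43), TRIM22 (0.40) and SAMD9L (0.35).

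The replicate numbers gave no sign of pairing: same-numbered libraries correlated at 0.09, -0.02 and 0.01 in their deviations from the group means, and not every library correlated best with its own number. With 3 libraries per group this check is too small to settle whether libraries were paired. With the replicate number as a block 33 members were higher and 8 lower, and 7414 genes were called in all.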
